A study of Mus musculus with 16 samples.

Results

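Expression of 9 genes that trace the intestinal IgA system was described in the duodenum and ileum of mice with and without Neurog3 in the gut epithelium. The genes were chosen by name from the 55359 genes of the count table, and all 9 were found in it. They form 3 roles, which are kept apart below. Ms4a1, Cd79a, Cd79b, Cr2 and Ighm are 5 B cell genes grouped as follicle genes by name, not by how they varied here. Igha, Jchain and Mzb1 are 3 plasma cell genes. Pigr is the epithelial receptor that carries IgA into the lumen.

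RNA of both tissues was sequenced from 8 adult male C57BL/6N mice on standard chow, giving 16 libraries in 4 groups of 4. Mutants (NFVCT27, NFVCT38, NFVCT153 and NFVCT190) were Neurog3f/f; Villin-CreERT2, whose recombinase works once tamoxifen is given and is made in the intestinal epithelium, and controls (NF17, NF29, NF32 and NF152) were Neurog3f/f without that transgene, so all mice carried floxed Neurog3. Tissue was collected 18 weeks after tamoxifen; whether controls received it is not said separately, and effects of the transgene and of the loss of Neurog3 cannot be told apart. The labels do not say which layers of the wall were taken or whether a Peyer's patch was included or avoided. Each animal gave a duodenal and an ileal library, so libraries of a group come from separate animals.

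Naive B cells gather in lymphoid follicles of the gut wall, such as the Peyer's patches, which are best known from the ileum. There, signals from T cells, dendritic cells and cytokines of the TNF and TGF-beta families switch some of them from IgM to IgA, and they return to the lamina propria as plasma cells. These cells secrete IgA dimers joined by the J chain, which the polymeric immunoglobulin receptor of the epithelium binds on its basal side and releases into the lumen with a part of itself attached. Ms4a1 encodes CD20, a surface protein that plasma cells have lost. Cr2 encodes complement receptor 2, found on mature B cells and follicular dendritic cells. Cd79a and Cd79b are the signalling chains of the B cell receptor, Ighm is the heavy chain of IgM, and Mzb1 is a chaperone of the endoplasmic reticulum that helps antibody assembly.

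Total counts per library ran from 8213889 to 35076714. Neurog3 had 0 counts in all 8 mutant libraries and 8 to 37 in the 8 control libraries, which goes with the labels. Pancreatic acinar genes took 1.77% to 18.4% of counts in duodenal libraries and 0.0345% to 0.812% in ileal ones. Levels below are CPM, counts brought to a common library size by a single TMM scaling of the 16 libraries. Called means an adjusted p below 0.05 (edgeR quasi-likelihood test, Benjamini-Hochberg over all genes tested), and the standard error of a log2 fold change is written SE. In whole tissue, fewer cells of a type and less RNA per cell cannot be told apart.

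The ileal library of control NF152 stood apart from the others in the follicle genes. All 5 of them were highest of the 16 libraries there, against 8.74% of the 15878 genes compared. Ms4a1 reached 41.4 CPM, where ileal controls NF17, NF29 and NF32 had 0.825, 1.34 and 0.908. Cr2 was at 23.9 CPM there against 0.359, 0.536 and 1.36. For Ighm the values were 150 CPM against 17.8, 12.8 and 17.4. Relative to the mean of those 3 controls the ratios were 40.5 for Ms4a1, 31.8 for Cr2, 9.35 for Ighm, 6.09 for Cd79b and 3.13 for Cd79a. For Cd79a, the duodenum of control NF29 had 9.35 CPM, close to the 9.90 CPM of the NF152 ileal library.

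Other B cell genes behaved alike in that library. Of a list of 25, among them Cd22 and Pax5, 22 were highest of the 16 libraries there, with a median ratio of 3.28. Of 10 genes of follicle stroma and lymphoid chemokines, 8 were highest there (median ratio 3.04), and 3 of 10 germinal centre genes were (median ratio 1.39). None of the 3 plasma cell members was highest there: Igha, Jchain and Mzb1 had ratios of 1.76, 1.85 and 0.92. The ratio of Pigr was 0.94, and 0 of 16 other plasma cell genes, 0 of 9 epithelial genes and 1 of 9 T cell genes were highest in it. The duodenal library of the same animal held 1.03 CPM of Ms4a1 and 0.378 of Cr2, beside 1.02 and 1.02 in the duodenum of control NF32. Ileal genotype fold changes of the members are therefore given with and without this library, which was singled out after seeing its values. Some other ileal results, such as ratios to other genes, are given only with it.

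**Figure D1:**
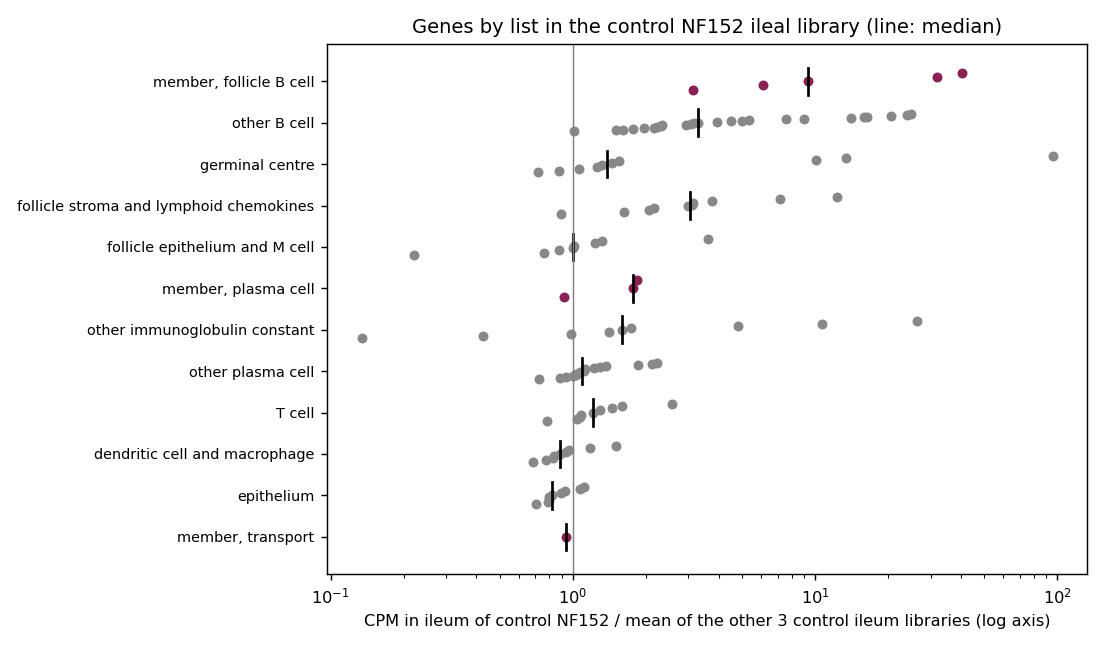
Ratio of the CPM in the ileal library of control NF152 to the mean of the other 3 ileal controls (log axis), for the genes of 12 lists. Each point is a gene, the short black line is the list's median, and purple points are the 9 genes described here. The 5 follicle genes lie between 3.13 and 40.5, and the plasma cell genes and Pigr between 0.92 and 1.85.

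Per kilobase of exon, the genes fell into a high and a low tier. In control duodenum Igha had 3414 ± 1094 CPM per kb (SD, n = 4), Pigr 2302 ± 332 and Jchain 1070 ± 272. Ighm followed at 12.0 ± 2.1, Cd79b at 6.45 ± 1.49, Cd79a at 4.85 ± 1.32 and Mzb1 at 2.42 ± 0.44. Ms4a1, at 0.110 ± 0.067, and Cr2, at 0.0510 ± 0.0521, were lowest. The ranges of Igha (lowest 2524) and Pigr (highest 2593) met, and so did those of Cd79b and Cd79a and of Ms4a1 and Cr2. The order was the same in mutant ileum, while Cd79b stood just above Ighm in mutant duodenum and Ms4a1 above Mzb1 in control ileum. That last position rested on the NF152 library, since without it Mzb1 had 0.874 ± 0.922 and Ms4a1 0.166 ± 0.045 CPM per kb (SD, n = 3). Outside the NF152 ileal library, Ms4a1 never exceeded 1.34 CPM, although Cd79a, Cd79b and Ighm were measured in every library. Mzb1 is uncertain, because 57.2% of its exonic bases in the GENCODE M21 annotation overlap the gene Spata24 on the same strand; the other 8 members had no such overlap.

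**Figure D2:**
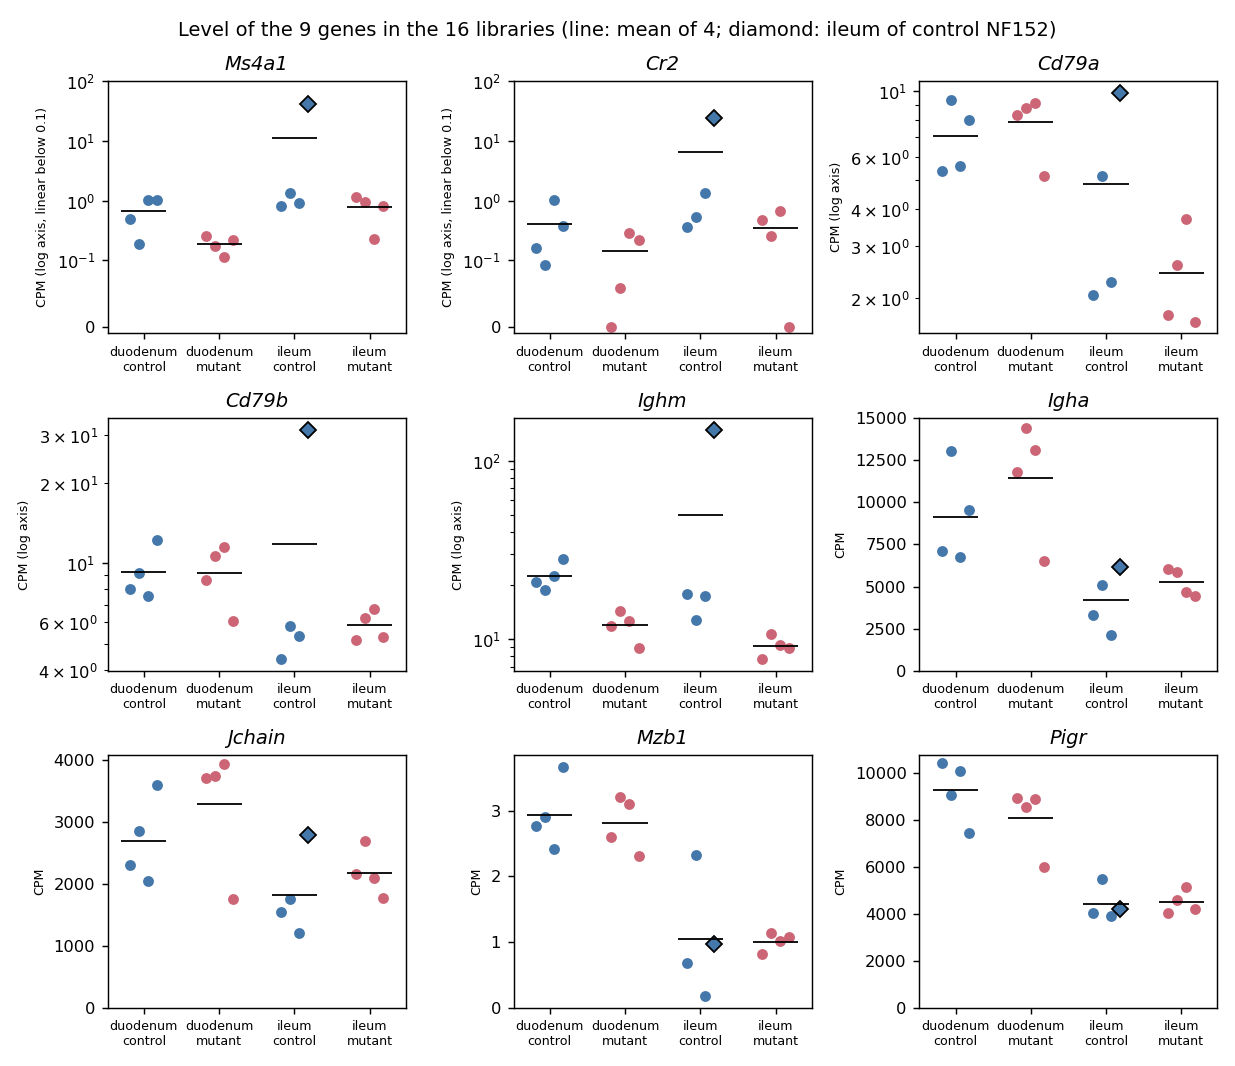
CPM of each of the 9 genes in the 16 libraries, by tissue and genotype. Points are libraries, horizontal lines are means of 4 libraries, and the diamond is the ileum of control NF152; axes are logarithmic for the 5 follicle genes (with a linear stretch near 0 for Ms4a1 and Cr2) and linear from 0 for the others. The diamond lies far above the rest for Ms4a1, Cr2, Cd79b and Ighm, while Igha, Mzb1 and Pigr are lower in the ileum than in the duodenum.

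Upstream sequences of 4 of the 9 genes were searched, and the other members were left out of this search. Those of Cd79a, Jchain and Pigr are shown, 1 gene for each role, as the 250 bases before the start site on the gene's strand (RefSeq, GRCm38.p6). Cd79a lies at chr7:24897247-24897496 (+), Jchain at chr5:88527898-88528147 (-) and Pigr at chr1:130826434-130826683 (+). Capitals mark the only match of the motifs in the windows searched for these 4 genes.
Cd79a: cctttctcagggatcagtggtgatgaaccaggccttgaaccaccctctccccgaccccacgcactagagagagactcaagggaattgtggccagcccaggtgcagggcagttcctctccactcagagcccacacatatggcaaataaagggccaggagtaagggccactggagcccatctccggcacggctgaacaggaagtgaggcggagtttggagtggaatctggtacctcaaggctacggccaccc
Jchain: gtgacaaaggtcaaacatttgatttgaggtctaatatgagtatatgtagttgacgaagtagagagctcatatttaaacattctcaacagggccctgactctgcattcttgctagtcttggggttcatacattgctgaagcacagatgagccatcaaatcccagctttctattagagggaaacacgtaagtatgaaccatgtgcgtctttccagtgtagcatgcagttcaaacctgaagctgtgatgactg
Pigr: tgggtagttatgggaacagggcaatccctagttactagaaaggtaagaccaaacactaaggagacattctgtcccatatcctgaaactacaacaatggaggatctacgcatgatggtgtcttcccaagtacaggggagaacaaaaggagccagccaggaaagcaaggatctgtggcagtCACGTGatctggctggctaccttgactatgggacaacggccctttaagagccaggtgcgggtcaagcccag
Motifs searched on both strands were ATTTGCAT, the octamer known from B cell promoters, and CACGTG, an E-box. The E-box of Pigr starts 71 bases before the start site, and 6.02% of 32851 upstream windows of this length hold that motif. The octamer occurs in 1.6% of windows and was not matched in those of Cd79a, Cr2, Jchain or Pigr.

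The first comparison asks whether the loss of Neurog3 went with a change of these genes in the duodenum. There, among the members that reached the filter on low counts, Ighm had the fold change farthest from 0. In controls NF17, NF29, NF32 and NF152 it had 20.8, 18.8, 22.6 and 28.1 CPM. Mutants NFVCT27, NFVCT38, NFVCT153 and NFVCT190 had 11.8, 14.4, 12.6 and 8.94 CPM. Every mutant lay below every control, with means of 11.9 ± 2.3 and 22.6 ± 4.0 CPM (SD, n = 4 each). The log2 fold change was -0.92 (SE 0.17, 95% interval -1.30 to -0.54), and with an adjusted p of 0.0537 (edgeR) it narrowly missed the call.

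Called genes made up 0.394% of the 14703 tested in the duodenum, and 0 of the 9 members were among them with edgeR. An unadjusted p under 0.05 was found for 1 member, Ighm, and for 1280 of all 14703 genes (edgeR). Groups that did not overlap, with mutants lower, were found for 2.98% of genes. Ighm was called with RLE scaling (adjusted p = 0.0497), without a filter on low counts (0.00155), with DESeq2 (0.000343), with the acinar score as a covariate (0.018) and with immunoglobulin and acinar genes left out of the scaling (0.0497). It was not called with limma-voom (0.053) or in any of the 8 fits that left out a library (0.0604 to 0.1405).

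The other follicle genes did not go with Ighm in the duodenum. Cd79a had 5.38, 9.35, 5.57 and 7.99 CPM in controls and 8.32, 8.80, 9.16 and 5.18 in mutants, in the same order of animals. These ranges overlap, and the log2 fold change was 0.16 (95% interval -0.35 to 0.66). Cd79b stood at 9.23 ± 2.13 CPM in controls and 9.19 ± 2.39 in mutants, a log2 fold change of -0.01 (95% interval -0.49 to 0.48). Ms4a1 and Cr2 did not reach the filter on low counts. Ms4a1 had 38 counts over the 4 control libraries (0.187 to 1.03 CPM) and 12 over the 4 mutant ones (0.116 to 0.252 CPM), with overlapping ranges. Cr2 had 21 and 13 counts, and none in NFVCT27.

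No plasma cell gene was called in the duodenum, and their intervals leave room for changes either way. Igha had 7099, 13067, 6733 and 9535 CPM in controls NF17, NF29, NF32 and NF152. It had 11790, 14397, 13111 and 6525 CPM in mutants NFVCT27, NFVCT38, NFVCT153 and NFVCT190. The groups overlap, since NFVCT190 was lowest of all 8 and NF29 reached the level of the other mutants. The log2 fold change was 0.32 (SE 0.36, 95% interval -0.47 to 1.12, adjusted p = 0.90, edgeR). Jchain, which links IgA into dimers, had 2297, 2846, 2043 and 3589 CPM in controls and 3704, 3731, 3934 and 1760 in mutants. In 3 mutants it was above every control and in NFVCT190 below every control, and the log2 fold change was 0.28 (95% interval -0.40 to 0.96). Mzb1 differed by -0.07 (95% interval -0.55 to 0.41).

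Pigr had 10438, 9071, 10087 and 7461 CPM in duodenal controls and 8961, 8576, 8887 and 5987 in mutants. The ranges overlap, and the log2 fold change was -0.20 (95% interval -0.83 to 0.43, adjusted p = 0.94, edgeR). NFVCT190, lowest for Igha, Jchain and Pigr, also had the highest acinar share (18.4%) and the lowest summed level of the 9 epithelial genes (6947 CPM against 7310 to 12770 in the other 7 duodenal libraries). The part of these differences in its values was not tested. Set against that epithelial sum, Pigr was 106.3% ± 12.5 in controls and 81.0% ± 7.5 in mutants (SD, n = 4 each), with no overlap (exact two-sided permutation p = 0.0286, the smallest 4 against 4 allow; adjusted 0.0477 over 10 such tests). That sum was 8737 ± 1086 CPM in controls and 10140 ± 2400 in mutants, so the ratio moves with both of its terms.

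In the ileum, Ighm was again lower in every mutant than in every control. Mutants NFVCT27, NFVCT38, NFVCT153 and NFVCT190 had 7.72, 10.6, 9.33 and 8.89 CPM, against 12.8 to 17.8 in controls NF17, NF29 and NF32 and 150 in NF152. With all 8 libraries the log2 fold change was -2.46 (SE 0.96) and was not called (adjusted p = 0.288, edgeR). Without NF152 it was -0.83 (SE 0.17, 95% interval -1.20 to -0.47) and was called (adjusted p = 0.0218, edgeR). Leaving out any 1 of the other 7 libraries gave no call.

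Of all 14951 ileal genes tested, 2356 had an unadjusted p under 0.05 (edgeR), with Ighm as the 1 member among them. Called were 3.28% of genes, and 0 of the members. Limma-voom called none either, and DESeq2 called none but gave no adjusted p for Ms4a1, Cd79b and Ighm, so it says nothing of those 3. Mutants were below controls without overlap for 4.35% of genes. Without NF152, 2.41% of 14558 genes were called, 1.17% as lower, and Ighm was the 1 member among them.

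The ileal differences of the remaining follicle genes rested on the NF152 library. Ms4a1 differed by -3.84 (SE 1.73, adjusted p = 0.362) with it and by -0.35 (SE 0.45, adjusted p = 0.789) without it (edgeR). Its mutant values were 1.17, 0.943, 0.225 and 0.804 CPM, against the 0.825 to 1.34 of the other 3 controls. Cd79a went from -1.05 to -0.40 and Cd79b from -1.05 to 0.16, with 95% intervals of -1.24 to 0.45 and -0.27 to 0.59 without NF152. Cr2 was not tested, with 0 to 0.674 CPM in mutants and 0.359 to 1.36 in the other 3 controls.

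Igha in the ileum had 3303, 5101, 2112 and 6186 CPM in controls NF17, NF29, NF32 and NF152, and 6030, 5846, 4682 and 4459 in mutants NFVCT27, NFVCT38, NFVCT153 and NFVCT190. All 4 mutants lay inside the wider control range. The log2 fold change was 0.31 (95% interval -0.37 to 0.99), or 0.56 (95% interval -0.05 to 1.16) without NF152. Jchain had 1549, 1755, 1209 and 2780 CPM in controls and 2149, 2681, 2088 and 1761 in mutants. It differed by 0.23 (SE 0.23, adjusted p = 0.704), and without NF152 by 0.50 (SE 0.16, adjusted p = 0.136, edgeR), when every mutant was above the other 3 controls. Mzb1 differed by 0.01 (95% interval -1.03 to 1.04). Pigr had 4414 ± 735 CPM in controls and 4491 ± 502 in mutants, a log2 fold change of 0.00 (95% interval -0.30 to 0.31), and relative to the epithelial genes it was 39.3% ± 6.7 and 40.6% ± 6.8.

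**Figure D3:**
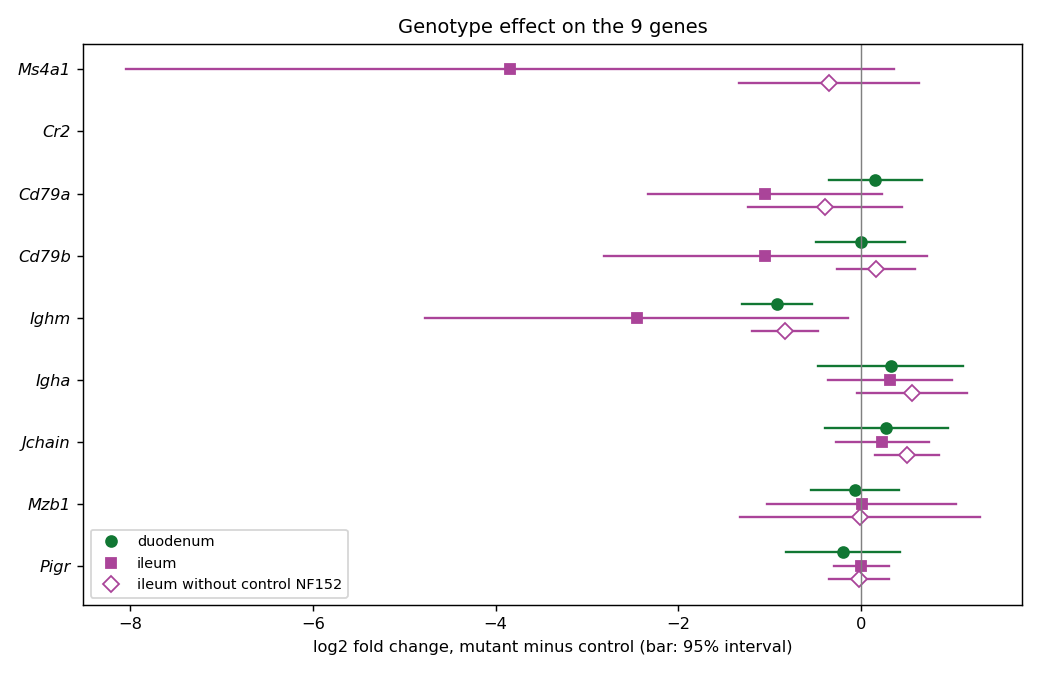
Log2 fold change of mutant against control for each gene in the duodenum (green circles), the ileum (filled squares) and the ileum without control NF152 (open diamonds). Bars are 95% intervals from the edgeR fit; Cr2, and Ms4a1 in the duodenum, were not tested. The interval of Ighm lies below 0 in all 3 fits, and those of the other ileal follicle genes shrink toward 0 without NF152.

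The balance of IgA to IgM transcripts differed by genotype in both tissues. The ratio of Igha to Ighm counts was 418 ± 186 in control and 941 ± 142 in mutant duodenum (SD, n = 4 each). In the ileum it was 186.7 ± 153.4 and 583.5 ± 133.4. The ileal controls had 41.3 in NF152 and 121 to 399 in NF17, NF29 and NF32. In neither tissue did the groups overlap (exact two-sided permutation p = 0.0286 in each, the smallest possible, adjusted 0.0477 over 10 tests). The 10 tests took this ratio, Pigr over the epithelial sum, the acinar share, and the smooth muscle and T cell sums in each tissue. Several had the same smallest p, which set the adjusted value. None of these tests was repeated without NF152. The ratio contains Ighm, so it adds no independent evidence to the values above. Igha made up 98.48% to 99.58% of heavy chain constant counts in control duodenum and 99.41% to 99.64% in mutants, and 93.75% to 99.03% and 99.24% to 99.52% in the ileum.

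No member was called in the test of the difference between the genotype effects of the tissues (edgeR, 16 libraries). There, 0.0441% of 15882 genes were called and 700 had an unadjusted p under 0.05. Each of the 9 had an adjusted p of 1 and 0 had an unadjusted p under 0.05; limma-voom called 0 members as well, and DESeq2 called 0 but gave no adjusted p for Ms4a1, Cd79b, Cr2 and Ighm. The difference, ileum minus duodenum, was 0.00 for Igha (95% interval -0.92 to 0.92), -0.03 for Jchain and 0.22 for Pigr. For Ighm it was -1.53 (95% interval -3.57 to 0.52), and 0.11 when the NF152 ileal library was left out.

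Among the signals that guide IgA switching and homing, Tnfsf13b changed in the duodenum. It encodes BAFF, a survival factor for B cells. Controls NF17, NF29, NF32 and NF152 had 13.4, 15.9, 12.2 and 8.09 CPM, and mutants NFVCT27, NFVCT38, NFVCT153 and NFVCT190 had 6.05, 3.61, 5.01 and 5.63. Every mutant was below every control, and the log2 fold change was -1.30 (SE 0.23, adjusted p = 0.0378, edgeR). The call was lost with limma-voom (0.053), with the acinar covariate (0.0751) and without any 1 library other than control NF152 (0.0543 to 0.1515). In the ileum controls had 8.71, 9.29, 8.35 and 9.52 CPM and mutants 7.96, 6.60, 5.84 and 6.54, a log2 fold change of -0.44 that was not called (adjusted p = 0.155, edgeR). Of the 11 genes of this list that were tested, Tnfsf13b was the 1 called in the duodenum and Aldh1a1 the 1 in the ileum.

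**Figure D4:**
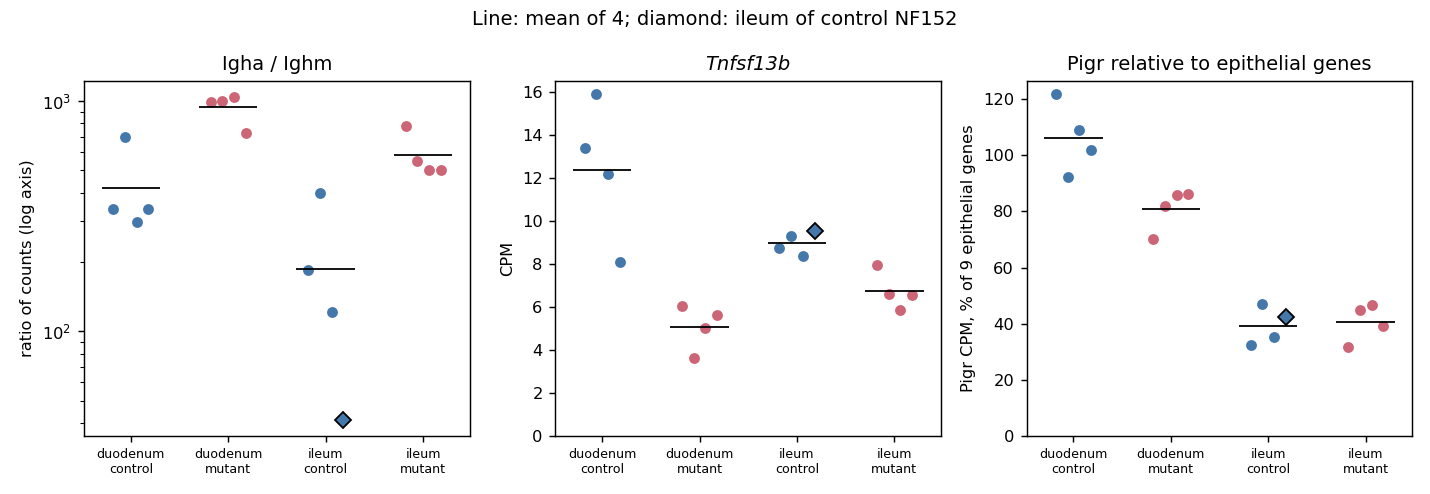
Ratio of Igha to Ighm counts (log axis), CPM of Tnfsf13b, and Pigr as a percentage of the summed CPM of 9 epithelial genes, in the 16 libraries. Points are libraries, lines are means of 4, and the diamond is the ileum of control NF152. Mutants lie above controls in the first panel and below them in the second in both tissues, and below them in the third in the duodenum.

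The other lists held few called genes in the duodenum. None of 18 other B cell genes, 16 other plasma cell genes, 13 signals known to raise Pigr or 14 transcytosis genes was called (edgeR). Among them 2, 2, 2 and 1 had an unadjusted p under 0.05, beside 1280 of all 14703 genes tested. The median log2 fold changes of these lists were -0.19, 0.13, -0.04 and 0.06, beside 0.00 over all genes tested. Irf1, an interferon-induced transcription factor that acts on Pigr, had -0.63 (adjusted p = 0.207, edgeR; 0.0472 with DESeq2), and Blnk, an adaptor of B cell receptor signalling, had 0.36 (adjusted p = 0.24, edgeR).

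T cell markers moved with Ighm in both tissues. Their summed level was 67.7 to 94.6 CPM in control and 28.0 to 48.0 in mutant duodenum, and 52.9 to 69.4 and 19.3 to 44.5 in the ileum. All 9 had a fold change below 0 in each tissue; Cd3e and Lck fell in the duodenum, and Cd3e, Cd4, Cd5, Lck and Trac fell in the ileum. Without NF152 all 9 were still below 0 there, but the calls of Cd4 (adjusted p = 0.0717) and Trac (0.0542, edgeR) were lost. None of the 9 dendritic cell and macrophage markers was called in either tissue, though all 9 were below 0 in both (median -0.43 and -0.38). Without NF152, Itgax, an integrin chain of dendritic cells, was called as lower in the ileum (-0.53, adjusted p = 0.0298, edgeR). Smooth muscle genes summed to 2563 to 3736 CPM in control and 4448 to 6023 in mutant ileum, with 6 of 8 called as higher, or 3 (Des, Tagln and Cnn1) without NF152. The part of these markers in the Ighm result was not tested in the duodenum, and in the ileum the smooth muscle level and genotype cannot be told apart because the groups do not overlap.

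Of 6 tested genes of follicle stroma and lymphoid chemokines, 2 fell in mutant ileum; all 6 fold changes were below 0 (median -1.24). Without NF152 only 1 was called, 5 of the 6 were below 0 and the median was -0.779. Ccr7, the chemokine receptor that brings T cells and dendritic cells into lymphoid tissue, had 1.29, 1.07, 1.73 and 2.81 CPM in controls and 0, 0.503, 0.337 and 0.429 in mutants (log2 fold change -2.31, adjusted p = 0.0200, edgeR). Ltb, the lymphotoxin subunit needed to form follicles, had 3.26, 2.23, 3.09 and 6.21 CPM in controls and 1.17, 0.755, 0.562 and 1.82 in mutants (-1.76, adjusted p = 0.0233, edgeR). In both genes the groups stay apart without NF152, but their adjusted p then rose to 0.0727 and 0.0705. Both calls were also lost without control NF32 (0.0514 and 0.0508), and that of Ltb without NFVCT27, NFVCT38 or NFVCT153 (up to 0.0859). Cxcl13, the chemokine that draws B cells into follicles, was at 3.87, 6.17, 4.09 and 17.6 CPM in controls and 1.99, 2.201, 1.24 and 2.36 in mutants. It was not called with NF152 (-2.03, adjusted p = 0.122) and was called without it (-1.25, adjusted p = 0.0307, edgeR) and by DESeq2 on all libraries (adjusted p = 0.000174). T cells express Ccr7 and Ltb as well, and the part of the lower T cell markers in these values was not tested.

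Among the other ileal genes, Slamf7, a surface receptor of plasma cells and other leukocytes, fell by 0.63 on the log2 scale (adjusted p = 0.0174, edgeR; 0.0535 without NF152). It was the 1 called of 16 other plasma cell genes, whose median was -0.08, or 0.06 without NF152. Aldh1a1, an enzyme of retinoic acid synthesis, fell by 1.05 (adjusted p = 0.0385), with overlapping groups, and was called in the fits without NF17 or NF29 but in none of the other 6 (0.0735 to 0.1226) or with limma-voom (0.0695). Rgs13, a germinal centre gene that tuft cells of the gut epithelium also express, rose by 0.71 (adjusted p = 0.0394, edgeR). That call was kept without NF152 (0.0118) and lost without any other library (0.0508 to 0.1509), and none of the other 5 germinal centre genes tested was called. None of 17 other B cell genes, 13 signals known to raise Pigr or 14 transcytosis genes was called (edgeR). Among them 6, 2 and 1 had an unadjusted p under 0.05, beside 2356 of all 14951 genes tested. The median of the other B cell genes was -0.76, or -0.26 without NF152, beside -0.01 over all genes tested in each case.

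Along the gut, Igha, Mzb1 and Pigr were lower in the ileum than in the duodenum in both genotypes. In controls the log2 fold change of Igha was -1.12 (SE 0.33, adjusted p = 0.0187), that of Mzb1 -1.55 (SE 0.47, adjusted p = 0.0222) and that of Pigr -1.07 (SE 0.21, adjusted p = 0.00135; edgeR), and the tissues did not overlap in any of the 3, as for 17.8% of genes with the ileum lower. Jchain had -0.56 (adjusted p = 0.108) and was called once the animal was fitted as a block (-0.59, adjusted p = 0.0128, edgeR), without a filter (0.00328), with DESeq2 (0.0461) and without animal NF152 (0.0254). These 3 called members stand beside 35.9% of 14976 genes called in this comparison, 18.7% as lower. The call of Igha was lost without animal NF17, NF29 or NF32 (adjusted p up to 0.0728), and that of Mzb1 without NF17 or NF152 (up to 0.121).

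No follicle gene was called between control tissues when all libraries were used. Once the NF152 ileal library was left out, 6 members were lower in the ileum, beside 30.7% of 15007 genes called, 16.3% as lower. That library was chosen after seeing its high follicle gene values, so leaving it out lowers the ileal level of these genes by itself. The duodenal library of the same animal stayed in this fit. Cd79a then had -1.20 (adjusted p = 0.0229), Cd79b -0.85 (adjusted p = 0.0098) and Ighm -0.49 (adjusted p = 0.0465, edgeR). Igha, Jchain and Pigr were the others, and Mzb1 was not called (adjusted p = 0.0592). With that library, Cd79b and Ighm had 0.37 and 1.14, the opposite direction. Leaving out animal NF152 with both tissues gave -0.66 (adjusted p = 0.0233) for Cd79b and -0.35 (adjusted p = 0.121, edgeR) for Ighm. Cd79a was called in 0 of the 4 fits that left out an animal with both tissues (-1.12 to -0.36, lowest adjusted p = 0.0513, edgeR). Ms4a1 was at 0.187 to 1.03 CPM in control duodenum and 0.825 to 1.34 in the other 3 ileal controls.

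In mutants 5 members were lower in the ileum, where 32.3% of 14950 genes were called and 17.1% as lower. Log2 fold changes were -1.75 for Cd79a (SE 0.28, adjusted p = 0.000708), -1.49 for Mzb1 (SE 0.25, adjusted p = 0.000983) and -1.15 for Igha (SE 0.27, adjusted p = 0.00688; edgeR). Pigr followed with -0.87 (adjusted p = 0.00836) and Cd79b with -0.69 (adjusted p = 0.0227, edgeR), the last with overlapping tissues. The other 4 did not overlap, as for 15.9% of genes with the ileum lower. Cd79a and Mzb1 were called whichever animal was left out. The other calls were lost without at least 1 animal: Cd79b without NFVCT27, NFVCT38 or NFVCT153 (adjusted p up to 0.109), Pigr without NFVCT27 or NFVCT38 (up to 0.0858) and Igha without NFVCT38 or NFVCT153 (up to 0.066). Ighm (-0.41, adjusted p = 0.0813) and Jchain (-0.62, adjusted p = 0.0885) were not called. Jchain was called with DESeq2 (0.0353), without a filter (0.0352) and without NFVCT190 (0.00663).

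Most companion genes of plasma cells had the same direction. Of 16 other plasma cell genes, 5 were called as lower in control ileum and 9 in mutant ileum, beside 18.7% and 17.1% of all genes tested. In each, 15 had a fold change below 0, beside 7297 of 14976 genes in controls and 7663 of 14950 in mutants. Derl3, a protein of endoplasmic reticulum quality control, fell by 1.498 in controls and 1.80 in mutants on the log2 scale. Ccr10, a homing receptor of IgA plasma cells, fell by 1.47 and 1.18, the latter not without NFVCT27, NFVCT38 or NFVCT153 (adjusted p up to 0.216) or with the animal as a block (0.0525). Sdc1, the plasma cell surface proteoglycan that epithelial cells also carry, rose by 0.53 in controls. Igkc, the kappa light chain constant gene, fell by 1.17 and 1.15, close to the fold changes of Igha, and lost its call in mutants without NFVCT27 or NFVCT38 (up to 0.0681). The summed level of epithelial genes was 8737 ± 1086 CPM in control duodenum and 11290 ± 1055 in control ileum, and 5 of the 9 were called as higher where Pigr was lower. Other cell types moved with the tissue too. All 13 pancreatic acinar genes were called as lower in the ileum in each genotype (median -4.63 in controls and -5.28 in mutants), and 7 of 8 smooth muscle genes as higher. Over all genes, 2568 of 14976 in controls and 2274 of 14950 in mutants were called as higher. The part of these cell type markers in the plasma cell and Pigr values was not tested.

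Signals around the plasma cell were called in both directions between control tissues, where 35.9% of all 14976 genes tested were called. Of 11 tested genes of IgA induction and homing, 2 were called as higher and 3 as lower. For 13 signals known to raise Pigr these counts were 3 and 1, and for 14 transcytosis genes 3 and 1. Tnfsf13, which encodes APRIL, a plasma cell survival factor, fell by 1.27 on the log2 scale in the ileum, and Aldh1a2 and Tgfb1 fell by 0.82 and 0.71. Nos2 and Tgfbr2 were higher by 4.38 and 0.46. Of the genes known to act on Pigr, Il17rc, Ifngr1 and Relb were higher (0.75, 0.50 and 0.49) and Tnfrsf1a was lower (-0.61). Of the 14 transcytosis genes Vps35, Rab11a and Exoc4 were higher (0.77, 0.69 and 0.30) and Ap1b1 was lower (-0.36). Leaving out an animal ended the calls of Nos2 (NF17 or NF29, adjusted p up to 0.0825), Relb (NF17 or NF152, up to 0.0806), Tgfb1 (NF17, 0.0518), Ap1b1 (NF17, NF29 or NF32, up to 0.157, and 0.116 without the NF152 ileal library alone) and Exoc4 (the same 3 animals, up to 0.265). The call of Exoc4 was also lost with the animal as a block (0.0675), with RLE scaling (0.0514), without a filter (0.108), with DESeq2 (0.0512) and with limma-voom (0.0558).

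Some immunoglobulin constant genes marked an animal in both of its tissues. Iglc1, a lambda light chain gene, stood at 920 CPM in the duodenum and 502 in the ileum of control NF29, against 98.4 to 193 and 44.3 to 153.1 in the other 7 animals. Iglc3 had 83.5 and 43.2 CPM in mutant NFVCT153, against at most 42.1 and 13.8 elsewhere. Ighg1 had 29.4 and 51.2 CPM in control NF17 and 47.4 and 96.9 in control NF32, and at most 6.13 and 6.76 in the others. Both high animals were controls; the log2 fold change of Ighg1 was -3.04 in the duodenum and -5.33 in the ileum, and neither was called (adjusted p = 0.513 and 0.136, edgeR), though DESeq2 called it in the ileum (-5.24, adjusted p = 0.000105). Some of these genes have close copies, and the effect of reads that match more than 1 copy was not tested.

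**Figure D5:**
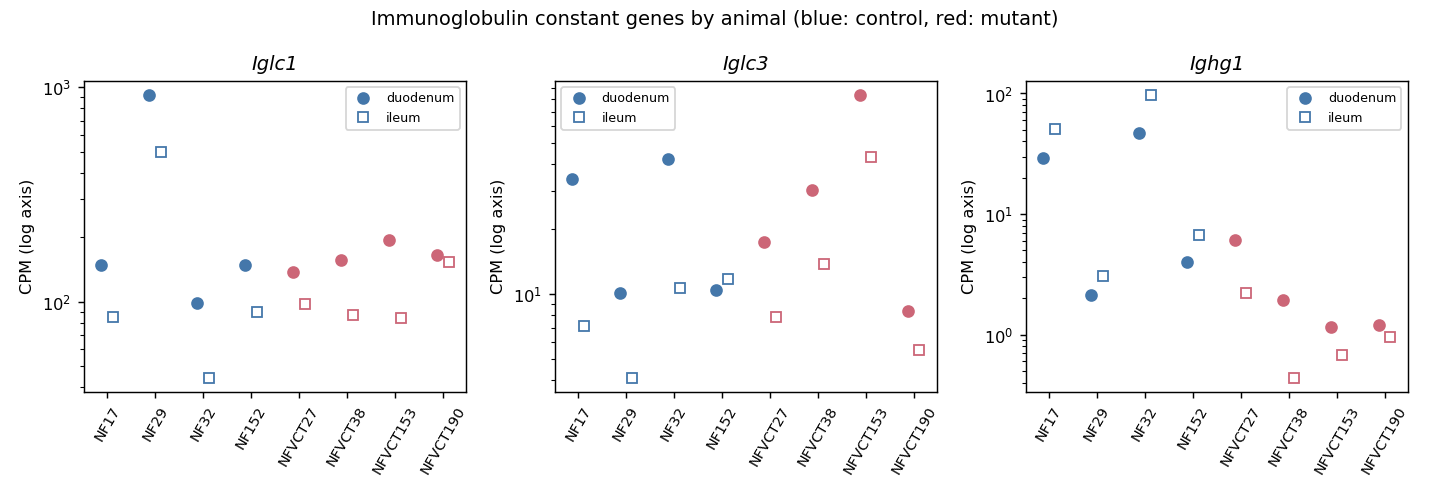
CPM (log axis) of Iglc1, Iglc3 and Ighg1 in the duodenum (filled circles) and ileum (open squares) of each animal, controls in blue and mutants in red. Iglc1 is highest in NF29, Iglc3 in NFVCT153 and Ighg1 in NF17 and NF32, in both tissues of each.

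As a measure of likeness, Pearson correlations of log2 CPM were taken over the 16 libraries after removing each group's mean; these libraries share animals and, in part, the NF152 outlier, and the values are a description. Jchain was most like Tnfrsf13b (0.932), Ighv1-9 (0.911), Slamf7 (0.904), Igkc (0.898) and Tnfaip6 (0.889), of which Tnfrsf13b alone stayed among its 5 nearest without the NF152 ileal library. Pigr was most like Dnajb11 (0.875), Muc13 (0.875), Arpin (0.866), Ext1 (0.863) and Lman2 (0.855), and 4 of these 5 stayed without that library. Cd79a was most like Fli1 (0.894), Sept7 (0.858), Ighv1-76 (0.851), Ighg2b (0.847) and Tmem167 (0.839), none of which stayed. Among the members, Cd79a had 0.494 with Ms4a1 over 16 libraries and -0.347 over the 15 without NF152. With Igha it had 0.767 and 0.698, and with Jchain 0.761 and 0.65. Ighm and Ms4a1 had 0.871 and then 0.0852. Without that library Cd79b had 0.812 with Jchain and -0.158 with Ms4a1, and Ighm had 0.513 with Jchain and 0.0498 with Igha. With each other, Cd79a and Cd79b then had 0.737, Cd79b and Ighm 0.573, and Cd79a and Ighm 0.0541. Ms4a1 rested on few counts in those libraries, so its low correlations say little. For Cd79a, Cd79b and Ighm the name follicle gene is a label given by name. Which cells held their transcripts was not tested.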

How the data were processed

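The members and gene lists were chosen with earlier results of these data known. Libraries were stranded, from ribosome-depleted total RNA, per the labels' protocols, with no molecular identifiers mentioned. Named in the submitters' processing notes are HTSeq 0.6.1p1, STAR 2.5.3a, Bowtie2 2.2.8, cutadapt 1.10, bcl2fastq 2.20.0.422 and the build mm39. How strand was handled in counting, and which annotation was used, is not given. The deposited table holds the authors' raw read counts for 55359 Ensembl genes; 52083 identifiers matched a symbol.

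Counts were fitted in R 4.3.3 with edgeR 4.0.16 (TMM, filterByExpr by group, robust quasi-likelihood F test, Benjamini-Hochberg over all genes tested). The SE was computed from the log2 fold change and the F statistic. Symbols, lengths and upstream windows are from GRCm38 tables (GENCODE M21, RefSeq), so no coordinates are given for the genes' counts. Text names the 9 members, called genes of the lists and up to 3 of smallest p per list. The scripts were tested on simulated data. Alternatives used RLE scaling, no filter, DESeq2 1.42.0, limma 3.58.1 (voom), score covariates, other scaling, the animal as a block and each library left out.

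Libraries of the same animal, paired by the labels, deviated together weakly (r 0.127 to 0.327 in 8 animals). For NF32 (0.191) and NFVCT190 (0.145), a library of another animal's other tissue was closer (0.218 in each), so these pairings rest on the labels. No pair of libraries in a group agreed within sampling noise (chi-square per degree of freedom at least 11.5).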

Additional observations from a re-analysis of the deposited data

Results flagged for a closer look

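In 144 sets of 4 libraries (36 genes in each group), 15 held a library far from the other 3, of which 6 concern the 9 genes (36 sets). The cutoff would flag about 1 in 20 sets of independent, normally distributed values. These CPM are not such values, and the genes were partly picked from these data, so the flags are a description. In the ileum of control NF152, 9 genes were high: Ms4a1 (41.4 CPM, others 0.825 to 1.34), Cr2 (23.9, others 0.359 to 1.36), Cd79b (31.5, others 4.37 to 5.81), Ighm (150, others 12.8 to 17.8), Cd22 (16.7, others 3.81 to 4.63), Cd37 (4.76, others 1.34 to 1.91), Ly6d (6.5, others 2.59 to 3.12), Ighg2b (105, others 17.9 to 27.9) and Cxcl13 (17.6, others 3.87 to 6.17).

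Mutant NFVCT190 had the lowest duodenal Jchain (1760 CPM, other mutants 3700 to 3930) and Pigr (5990, other mutants 8580 to 8960). Iglc1 was high in both tissues of control NF29, at 920 CPM in the duodenum (other controls 98.4 to 149) and 502 in the ileum (others 44.3 to 89.5). Ighg1 was high in the duodenum of mutant NFVCT27 (6.13 CPM, other mutants 1.16 to 1.92), and Rgs13 in the ileum of mutant NFVCT38 (23.1, other mutants 16.6 to 17.4).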

How the results depend on the processing

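With 4 libraries a group, 1 library can set a call, and Ms4a1 and Cr2 rest on few counts outside the NF152 ileal library. Read counts can understate the counting error, since PCR copies are not independent. Median shifts of all genes stayed within 0.02 (log2) under TMM and RLE scaling.

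In the duodenum 58 genes were called, 169 without a filter, 310 with DESeq2 and 27 to 61 with a library left out. Member calls went from 0 to 1 (Ighm) with RLE scaling, without a filter, with DESeq2, with the acinar covariate and with the other scaling, and were 0 in every fit with a library left out. Cd79b, near 0, turned to 0.007605 without a filter, 0.02407 with limma-voom and 0.002046 with the other scaling (-0.1288 to 0.172 with a library left out); Mzb1 ran from -0.1506 to 0.06929 and Iglc1 from -1.324 to 0.2935.

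In the ileum 490 genes were called, 1096 without a filter, 875 with DESeq2, 16 with the smooth muscle covariate and 272 to 472 with a library left out; member calls ran from 0 to 1. That covariate is nearly collinear with genotype, and with it signs turned for Ms4a1 (4.65), Cd79a (0.7454), Cd79b (1.791), Ighm (0.9541), Pigr (-0.07412), Cd72 (0.05601), Cd37 (0.413), Ighg2b (0.8891) and Cxcl13 (0.7172), none of them called. Mzb1 was -0.00165 without a filter and -0.02682 with DESeq2. With a library left out, Mzb1 ran from -0.2845 to 0.605, Pigr from -0.07815 to 0.1329 and Cd79b from -1.339 to 0.1602.

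For the difference between tissues in the genotype effect, 7 genes were called, 15 without a filter, 38 with DESeq2, 16 with the animal as a replicate block and 1 to 9 with an animal left out. Igha, near 0, turned to -8.214e-05 (RLE), -0.0294 (no filter) and -7.548e-05 (DESeq2), and Jchain to 0.1002 (limma-voom) and 0.05286 (block). With an animal left out, Igha ran from -0.1373 to 0.2371, Jchain from -0.1728 to 0.08225, Mzb1 from -0.121 to 0.686, Ms4a1 from -2.361 to 1.335 and Cd79b from -1.257 to 0.0153. Without the NF152 ileal library alone, chosen after seeing the data, Ms4a1 was 1.637, Cd79b 0.1867, Cr2 0.03728, Ighm 0.1092 and Jchain 0.2469.

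Between control tissues 5372 genes were called (3443 to 4787 with an animal left out) and 3 members (1 to 4; 6 without the NF152 ileal library alone). Cd79b turned to -0.09786 with limma-voom, -0.06443 with the block and -0.8482 without that library, and Ighm to -0.4894 without it; with an animal left out they ran from -0.6609 to 0.5925 and from -0.3483 to 1.417. Between mutant tissues 4833 genes were called (2818 to 4489) and 5 members (2 to 6). Beyond Jchain between control tissues, and Ccr10, Slamf7, Cd72, Vpreb3 and Exoc4 among the lists, the block changed no call of a named gene. No animal gave both genotypes, so no pairing entered the comparisons within a tissue. Other causes of these changes were not tested.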
